A study of Triticum aestivum with 15 samples.

Results

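The loci described here lie on the first 200 Mb of wheat chromosome 1A, the arm side of the chromosome that in TAM112 is replaced by rye. They were taken from the merged catalogue of assembled transcripts, whose loci carry an XLOC number and, where a reference gene overlaps, its TraesCS name, on the wheat assembly IWGSC RefSeq v1.0. A locus was a member if it ended below position 200000000 of the first part of chromosome 1A, carried a gene name and reached a summed FPKM of 1 in 2 or more of the 15 libraries. Of the 122017 loci of the catalogue, 1459 lay in this stretch, 1337 of these carried a gene name and 408 were members. FPKM is the number of sequenced fragments scaled to the length of the transcript and to the size of the library, so levels can be compared between genes of different length.

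In a wheat-rye translocation such as 1AL.1RS, which the methods of the study give for TAM112, the long arm of wheat chromosome 1A is joined to the short arm of rye chromosome 1, and the wheat short arm is lost. Rye and wheat genes of common origin are similar in sequence, and bread wheat carries further copies of most genes on chromosomes 1B and 1D, so fragments from elsewhere can be aligned to a wheat gene that a plant does not have. The rye arm has been used widely in wheat breeding for resistance to diseases and pests.

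The cultivars, TAM111 and TAM112, are hard red winter wheats, and the study grew both under a dry and a wet treatment and sequenced RNA of the flag leaf, the uppermost leaf below the ear. Leaves were taken at heading, 79 days after transplanting, and at grain filling, 100 days after transplanting, with leaves of 4 plants pooled in each library. TAM112 had 8 libraries, 2 for each stage and treatment. TAM111 had 7 libraries, 2 for each stage and treatment except heading under wet, which had 1. By the methods, each stage was a block and replicates within it were separate sets of pots, so p-values measure the spread between such pools of plants. In bulk leaf RNA, fewer cells of a type and less RNA per cell cannot be told apart. The tissue label was not checked against leaf markers, because the sources used here gave no product name for such genes.

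A pair of TAM111 libraries stood apart at these loci, namely heading dry replicate 1 and grain filling wet replicate 1. At the 73 members with at most 0.1 FPKM in every TAM112 library, their median FPKM was 0.706 and 0.811, against 2.08 to 2.66 in the other 5 TAM111 libraries. Relative to the other replicate of its group, the median level of these members was 36.0% in heading dry replicate 1 and 42.9% in grain filling wet replicate 1, whereas over all loci tested it was 91.6% and 92.6%. Across the whole genome, 188 loci had at least 1 FPKM in every TAM112 library and at most 0.1 in the other 5 TAM111 libraries. Of these, 151 were above 0.1 FPKM in heading dry replicate 1 and 159 in grain filling wet replicate 1. When each of the other TAM111 libraries was read in the same way against the remaining 4, between 3 and 11 of 191 to 199 loci were above 0.1. Both libraries thus held lower levels of loci found in TAM111 and measurable levels of loci otherwise found in TAM112, and calls of named loci that change without them are given both ways. The cause was not tested.

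**Figure D1:**
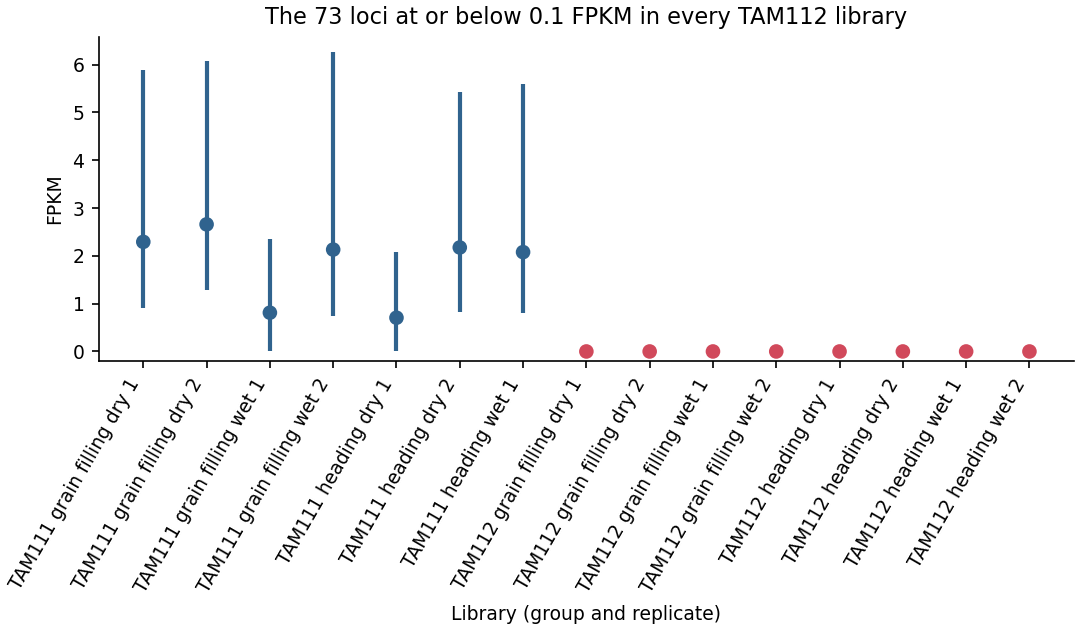
The 73 members at or below 0.1 FPKM in every TAM112 library, read in each of the 15 libraries (x axis, group and replicate). Points are the median FPKM over the 73 loci and bars run from the lower to the upper quartile, and the medians of TAM111 grain filling wet replicate 1 (0.811) and heading dry replicate 1 (0.706) lie below the 2.08 to 2.66 of the other TAM111 libraries.

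Expression from this stretch was far lower in TAM112 than in TAM111. Of the 1337 named loci, 396 reached 1 FPKM in at least 2 libraries of TAM111 and 155 did so in TAM112. In the remainder of chromosome 1A the corresponding counts were 1191 and 1202 of 3130 loci, in the first 200 Mb of chromosome 1B they were 396 and 424 of 1450, and in the first 200 Mb of chromosome 1D they were 483 and 508 of 1437.

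Averaged over both stages and treatments, 251 of the 400 members that could be tested were lower in TAM112 (limma on log2(FPKM + 1), Benjamini-Hochberg adjusted p below 0.05 over 49046 loci and a difference of at least 1). The share over all loci tested was 1.91%. Another 2 members were called higher in TAM112, where the share over all loci was 0.989%. The median difference over the 400 members was -1.32 on the log2(FPKM + 1) scale, which understates the difference at low levels, against -0.01 over all named loci tested. The other 8 members were not tested because they overlap other loci in a way that left the assignment of their entries uncertain. Without the 2 libraries that stood apart, 273 members were lower, of which 247 were among the 251.

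The expression filter had a part in these counts. It was passed through TAM111 alone by 251 members, a number equal to that of the members lower in TAM112 but not the same set, and such members had to be low in TAM112. Another 145 members passed in both cultivars, 10 in TAM112 alone and 2 in neither alone. Among the 143 tested members that passed in both cultivars, 90 were lower in TAM112 and the median level left was 25.2% of that in TAM111. For loci that passed in both cultivars the median level left was 97.2% in the remainder of 1A, 116% in the first 200 Mb of 1B and 112.4% in that of 1D. Just below the minimum were XLOC_001479 and XLOC_000170, both at 0.992 FPKM in their second highest library, and just above it were XLOC_000128 at 1.01 and XLOC_000468 at 1.04.

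Every TAM112 library was below every TAM111 library at 229 members, all of them tested, and over all loci tested this held at 1.23%. Of the 229, 154 had passed the filter in TAM111 alone and so had to be low in TAM112, and 75 were among the 143 that passed in both. Without the 2 libraries that stood apart the count was 282 members. In single comparisons, 54 members were lower in TAM112 under dry at heading (background 0.424%), 67 under wet at heading (0.732%), 159 under dry at grain filling (1.19%) and 67 under wet at grain filling (0.654%). Without the 2 libraries these counts were 144, 141, 208 and 153. A total of 39 members were lower in all 4 comparisons. Higher in TAM112 in limma were 0, 0, 2 and 0 members in the same order (backgrounds 0.212%, 0.102%, 0.512% and 0.155%), with 1, 3, 4 and 4 at an unadjusted p under 0.05. For the 39, and for all counts between cultivars without the 2 libraries, the share over all loci is not given. A gain at the members there cannot be told from a gain at all loci. The share is also not given for the 90 lower and 75 non-overlapping members among the 143 that passed in both cultivars. Except under wet at heading, these comparisons between cultivars leaned on the spread of all groups. With only the libraries of each in the fit, limma called 0 members under dry at heading. It called 1 under dry and 0 under wet at grain filling. At an unadjusted p under 0.05 were 216, 295 and 224 members in this order. The count under wet at heading did not fall, in a fit where TAM111 had 1 library.

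The members fell into 5 classes by what was left in TAM112, a description with no test. The level left is the mean of the 4 group means of TAM112 as a percent of that of TAM111. Absent members, with at most 0.1 FPKM in each TAM112 library, numbered 73, and 65 of these were listed at 0 in all 8. Trace members, with less than 25% left, numbered 223 and were the largest class. Another 63 members were reduced, at 25% to under 50%, 38 were kept, at 50% to 200%, and 11 were higher than 200%. Of the 212 members at 1 FPKM or more in all 7 TAM111 libraries, 53 were also at 1 FPKM or more in all 8 TAM112 libraries and 19 were absent from all 8.

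**Figure D2:**
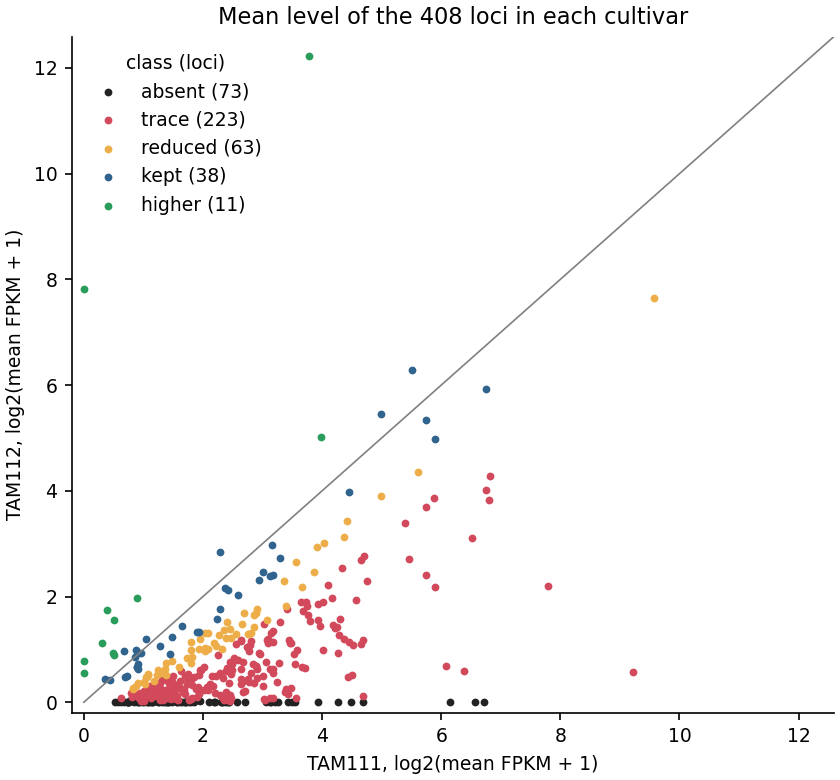
Mean FPKM of the 408 members in TAM111 (x axis) and TAM112 (y axis), both as log2(mean FPKM + 1), with 1 point per locus coloured by class and a line at equal levels. Most points lie below the line, with 223 trace and 73 absent members along the bottom.

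The classes also differed in gene structure, which was not used to define them. Length is not independent of the absent class, because a short locus yields fewer fragments at the same FPKM. The longest transcript of absent members had a median length of 812 bases and 2 exons, against 1461 bases and 5 exons in trace members and 1630 bases and 8 exons in reduced members. Kept members had a median of 1131 bases and 6 exons, and members of the higher class 860 bases and 2 exons. Single-exon loci made up 20.5% of absent, 9.42% of trace, 4.76% of reduced and 13.2% of kept members. Absent members also had a lower mean level in TAM111, with a median of 2.06 FPKM against 4.53 in trace and 3.26 in reduced members. These values were not tested.

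The absent members with the highest level in TAM111 were listed at 0 in every TAM112 library, so no fold is given for them. The 7 TAM111 libraries ranged from 22.5 to 253 FPKM with a median of 67.3 at XLOC_001761, which holds TraesCS1A01G056200 and TraesCS1A01G056400 at 36765541 to 36770407. They ranged from 18.4 to 209 with a median of 56.2 at XLOC_000682 (TraesCS1A01G131900, 177464814 to 177472827), and from 31.4 to 189 with a median of 53.3 at XLOC_002120 (TraesCS1A01G122000, 135968674 to 135971660). The cultivars did not overlap at any of these 3 loci, and the adjusted p of limma was 3e-05, 7.23e-06 and 5.17e-06. These loci and the next were picked as absent in TAM112 and highest in TAM111. A large difference was thus fixed by the choice and is no separate support.

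At the next absent members the 2 libraries that stood apart, or others, reached 0 in TAM111 as well. XLOC_001735 (TraesCS1A01G051900, 33375416 to 33377720) was at 0 in heading dry replicate 1 and at 9.94 to 52.2 FPKM in the other 6 TAM111 libraries (limma adjusted p = 0.00221). XLOC_000155 (TraesCS1A01G030000, 13979373 to 13979866) was at 0 in grain filling wet replicate 1 and at 9.52 to 31.9 in the other 6 (limma adjusted p = 0.00243). XLOC_001520 (TraesCS1A01G007600, 4047966 to 4048290) was at 18.8 in grain filling wet replicate 1, 58.9 in heading dry replicate 2 and 47.0 in heading wet, but at 0 in the other 4, and its lower level in TAM112 was not called (limma adjusted p = 0.185). It was called without the 2 libraries that stood apart (-2.87) and without heading dry replicate 1 alone (-3.41). Both fits left groups of TAM111 with 1 library. Without the 2 libraries, no group kept any spread at this locus, so that call does not measure the spread between pools of plants. XLOC_001520 lies within XLOC_000034 on the opposite strand. The libraries were made with a kit that does not keep strand, so fragments of the 2 loci cannot be told apart.

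Trace members included the loci with the highest steady level in TAM111, described here after their values were seen. XLOC_002084 (TraesCS1A01G115900, 121129129 to 121130160) lay between 260 and 841 FPKM in TAM111, with a median of 610, and at 0.914 or less in TAM112, with a median of 0.590. The lowest TAM111 values, 260 and 275, were those of the 2 libraries that stood apart, and the cultivars did not overlap. The difference was -8.57 (SE 0.24) on the log2(FPKM + 1) scale, the lowest of all members, with a limma adjusted p of 2.01e-07. XLOC_001970 (TraesCS1A01G093800, 86639280 to 86640857) lay between 102 and 294 in TAM111 and between 1.27 and 9.49 in TAM112, again with no overlap, and its level left was 1.63% (difference -5.67, SE 0.26, limma adjusted p = 4.47e-06). Over the 54 trace members with a mean of more than 10 FPKM in TAM111, the level left ran from 0.0819% to 24.9% with a median of 9.66%.

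Signal remained at the 38 kept members, whose class by its bounds leaves little room for a call. At XLOC_000273 (TraesCS1A01G051700, 33370746 to 33373228) the TAM112 libraries ranged from 37.5 to 94.3 FPKM with a median of 56.4 and the TAM111 libraries from 58.0 to 131 with a median of 120. The ranges overlapped, and the difference of -0.81 (SE 0.18, limma adjusted p = 0.0399) was under the required size, but without the 2 libraries that stood apart it was -1.01 (adjusted p = 0.00254) and was called lower. At XLOC_001578 (TraesCS1A01G019000, 9586582 to 9593941) the ranges were 24.0 to 53.5 in TAM112 and 31.7 to 71.2 in TAM111, with much overlap and 75.2% left. At XLOC_000493 (TraesCS1A01G096500, 92564927 to 92567805) they were 7.95 to 25.7 and 13.1 to 31.3, also overlapping, with 70.4% left.

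A part of the remaining signal came from short assembled entries. Cufflinks listed 76 entries above 0 that spanned under 300 bases, at 20 members, and 12 of these entries at 4 members were above 100 FPKM. XLOC_000034 (TraesCS1A01G007500, 4045758 to 4048321) was at 7.26 to 14.1 FPKM in 7 TAM112 libraries but at 541 in heading dry replicate 1, of which 526 came from an entry of 206 bases without a gene name. Its level left was 173% with such entries and 25.3% without them, when it was lower in TAM112 (difference -1.83, limma adjusted p = 0.00222). XLOC_000506 (TraesCS1A01G099000, 95183130 to 95186007) had 115 of its 136 FPKM in TAM112 grain filling wet replicate 1 from such an entry, and its level left went from 52.4% to 27.8% without it. XLOC_000036 (TraesCS1A01G007800, 4054742 to 4054960), with 86.8% left and values of up to 14.8 FPKM in TAM111 and up to 12.2 in TAM112, is itself a gene of 219 bases.

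The 2 members with the highest single values were of the same kind and are named after their values were seen. XLOC_000211 (TraesCS1A01G042700, 23339476 to 23340674) was at 5.88 to 43.3 FPKM in TAM111, whereas in TAM112 it was at 4408 to 11822 in 5 libraries and at 0 to 0.794 in the other 3. Without entries under 300 bases its mean was 12.7 in TAM111 and 0.476 in TAM112, so that its place changed from the higher to the trace class. XLOC_000055 (TraesCS1A01G012500, 6977955 to 7185043) was at 995, 2460 and 2599 in 3 TAM111 libraries, at 660 and 927 in 2 TAM112 libraries, and at 0.257 to 4.21 in the other 10. Without the short entries its means were 2.31 and 0.423. Leaving out all entries under 300 bases moved 9 members to another class and gave 254 members lower in TAM112.

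Only 2 members were called higher in TAM112, and both were low. XLOC_000362 (TraesCS1A01G070500, 53436322 to 53438267) was at 1.33 to 3.09 FPKM in TAM112. In TAM111 it was at 1.29 and 0.925 in grain filling wet replicate 1 and heading dry replicate 1, at 0.148 in heading wet and at 0 in the other 4 libraries. The cultivars did not overlap, and the difference was 1.41 (SE 0.23, limma adjusted p = 0.00766). XLOC_002072 (TraesCS1A01G113600, 117192094 to 117193973) was at 1.53 to 3.22 in TAM112 and at 0 to 1.53 in TAM111, so that the ranges touched, where the highest values, 1.53 and 1.01, were again those of heading dry replicate 1 and grain filling wet replicate 1 (difference 1.11, SE 0.19, limma adjusted p = 0.0109). Without these libraries the differences were 1.67 and 1.32. Without the heading wet library of TAM111 the difference at XLOC_002072 was 0.98 (adjusted p = 0.0364), under the required size. Of the 11 members of the higher class, 8 did not pass the filter in TAM111, so their membership rested on TAM112 values, which favours this class.

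Low levels extended along the whole stretch and ended a short way beyond it. In windows of 20 Mb, the median level left of loci that passed in TAM111 lay between 6.28% and 17.5% in each of the 10 windows up to 200 Mb. It was 14.5% from 200 to 220 Mb, 94.0% from 220 to 240 Mb, 103% from 240 to 260 Mb and 91.3% from 260 to 280 Mb. The last members below the limit were XLOC_000697 (TraesCS1A01G134000, 193517450 to 193517968) and XLOC_002183 (TraesCS1A01G134100, 197091564 to 197138407). XLOC_000697 was at 5.14 to 37.3 FPKM in TAM111 and at 0 to 2.06 in TAM112, with 4.79% left and no overlap. XLOC_002183 was at 0 to 1.63 and at 0.152 to 1.90, with 115% left and ranges that overlapped, and neither cultivar was far from the filter minimum.

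Beyond the limit the pattern went on for 9 more loci that passed the filter, from XLOC_002185 (TraesCS1A01G134300, ending at 201747125) to XLOC_000707 (TraesCS1A01G136200, ending at 213933580). Their level left had a median of 8.04% and a maximum of 38.7%, and 3 of them were absent. XLOC_002185 was at 5.02 to 9.57 FPKM in TAM111 and at 2.32 to 3.55 in TAM112, and the second locus beyond the limit, XLOC_002186 (TraesCS1A01G134500), was at 2.05 to 12.2 in TAM111 and listed at 0 in all 8 TAM112 libraries. The next locus, XLOC_002202 (TraesCS1A01G136400, ending at 216456663), had 98.4% left. From there to 240 Mb, 28 loci had a median of 96.2% left, a lowest value of 29.8% and a highest of 274%, and 0 were absent. The position of the step was read from these values and not tested.

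**Figure D3:**
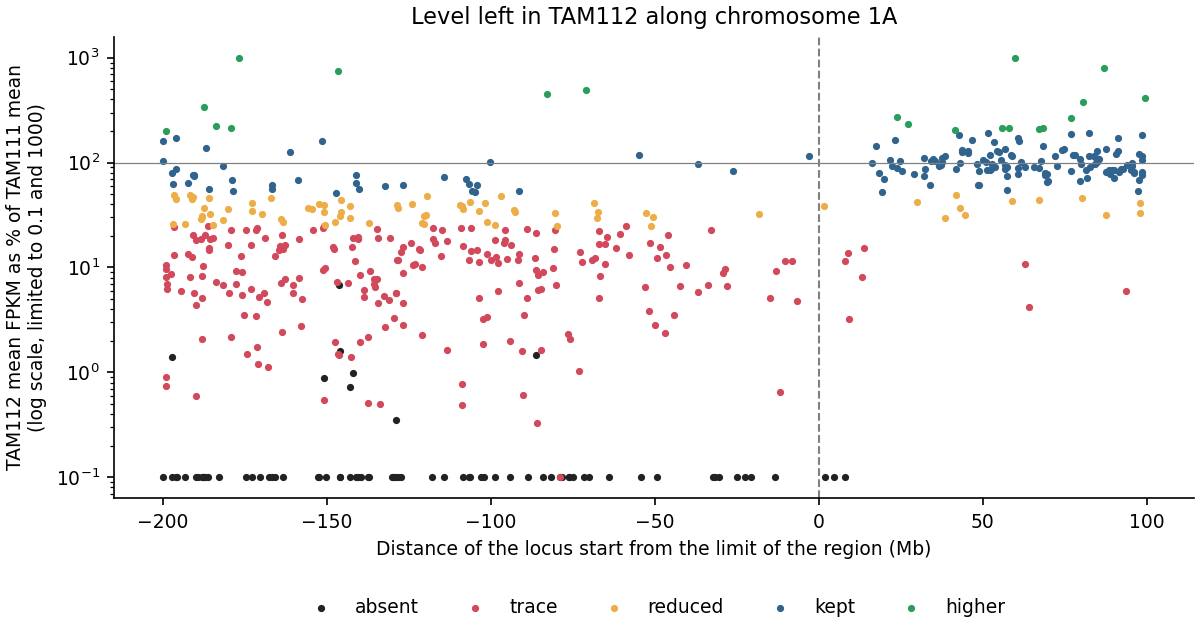
Level left in TAM112 as a percent of TAM111 (y axis, log scale, values beyond the axis drawn at its ends) against the distance of each locus from the 200 Mb limit (x axis, Mb, dashed line at the limit), for loci that passed the filter, coloured by class. The level is mostly below 50% left of the line and for 9 loci right of it, and is around 100% (grey line) from there on.

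Product names, inferred from sequence similarity, were at hand for 6 members. They came from the study's lists of genes that it had called different between dry and wet in these same plants. A dry–wet change at the 6 is therefore partly fixed by how they were picked and is no separate support. Among the 6 members, 4 are named as receptor or resistance proteins, and these were unlike each other in what was left. XLOC_000026 (TraesCS1A01G005000, 2975187 to 2977613) is named as like MDIS1-interacting receptor like kinase 2, a cell surface receptor in Arabidopsis. Its FPKM in TAM111 was 8.37 in heading wet, 2.87 and 10.4 in grain filling wet, 0.311 and 1.36 in heading dry, and 0.307 and 1.29 in grain filling dry, where the first value of each pair is replicate 1, and it was listed at 0 in all TAM112 libraries. All wet libraries were above all dry libraries in TAM111. The dry–wet difference at grain filling was -1.94 (SE 0.49, limma adjusted p = 0.0743) and was called without the 2 libraries that stood apart (-2.71, adjusted p = 0.0132) and without grain filling wet replicate 1 alone (adjusted p = 0.0228). The difference at heading was -2.41 (SE 0.60, adjusted p = 0.184) and was called without either grain filling wet replicate (adjusted p = 0.04995 and 0.0497).

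XLOC_001609 (TraesCS1A01G025600, 12303670 to 12311297) is named as like the disease resistance protein RPM1, an intracellular immune receptor of Arabidopsis. It ranged from 0.525 to 3.11 FPKM with a median of 1.65 in TAM111 and was listed at 0 in all 8 TAM112 libraries, with no overlap (limma adjusted p = 0.000121). With no filter, its dry–wet difference at heading in TAM111, against the single wet library, was -1.27 and was called. It was also called without entries under 300 bases, but not in the main fit. This locus had no such entry above 0, so its own values were the same in that fit as in the main fit. At grain filling in TAM111 the difference was -0.20 without such entries and was not called. XLOC_001573 (TraesCS1A01G017900 and TraesCS1A01G018500, 9355231 to 9551800) is named as an isoform of the leaf rust resistance kinase Lr10. In TAM111 it was at 26.6 FPKM in heading wet, 8.54 and 2.14 in heading dry, 16.4 and 28.0 in grain filling wet and 3.10 and 1.75 in grain filling dry. In TAM112 it was at 10.6 and 6.41, 6.68 and 4.19, 8.39 and 11.9, and 2.52 and 2.76 in the same order of groups.

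XLOC_001573 thus kept 47.2% of its level, the cultivars overlapped (limma adjusted p = 0.399), and it was lower under dry in TAM111 at grain filling by -2.74 (SE 0.51, limma adjusted p = 0.0241). At heading in TAM111 its difference was -2.33 (SE 0.63, adjusted p = 0.233), called only without both libraries that stood apart among the alternatives run (-3.14, adjusted p = 0.0482). The grain filling call was lost when any 1 grain filling library of TAM111 was left out (adjusted p from 0.0691 to 0.126). Its difference at grain filling in TAM112 was -1.59 (SE 0.51, adjusted p = 0.108), and the difference between the cultivars in this response was not called (1.15, SE 0.73, adjusted p = 0.87). The TAM112 difference was called, at the same size, when either heading dry library of TAM111 was left out. XLOC_000084 (TraesCS1A01G018000 and TraesCS1A01G018600, 9174599 to 9557140), named as like the same kinase, overlaps XLOC_001573 on the opposite strand and was not tested. It reached 3.88 FPKM in TAM111 and 4.78 in TAM112 and was at 0 in some libraries of both, with full overlap and 75.6% left.

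The other product names are of enzymes. XLOC_000450 (TraesCS1A01G089600, 79107177 to 79108103) is named as 1-aminocyclopropane-1-carboxylate oxidase, which makes the hormone ethylene. It was at 16.3 FPKM in heading wet, 5.68 and 3.35 in heading dry, 1.98 and 9.62 in grain filling wet and 13.5 and 9.66 in grain filling dry in TAM111, and in TAM112 at 1.69 and 0.832, 1.15 and 1.14, 2.02 and 0.925, and 7.80 and 4.74. Within each pair of groups TAM112 was below TAM111 except that grain filling wet replicate 1 of TAM111 lay between the TAM112 values. Its level left was 26.6% (difference -1.58, SE 0.29, limma adjusted p = 0.0145), a call that was lost without the heading wet library of TAM111 (-1.12, adjusted p = 0.117). In TAM112 its dry–wet difference at grain filling was 1.56 (SE 0.55, adjusted p = 0.139).

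XLOC_001847 (TraesCS1A01G072200, 54461024 to 54463249) is named as a mitochondrial acetylornithine aminotransferase, an enzyme of arginine synthesis. Its TAM111 libraries lay between 0.767 and 11.9 FPKM with a median of 5.03, and its TAM112 libraries between 0 and 7.47 with a median of 1.05. The ranges overlapped, 34.2% was left, and the difference of -1.21 was not called (SE 0.34, limma adjusted p = 0.106), whereas without the 2 libraries that stood apart it was -1.51 (adjusted p = 0.0496). Without entries under 300 bases, the dry–wet differences of XLOC_001847 at grain filling were 1.87 in TAM111 and 1.65 in TAM112. At heading they were 0.70 and -0.50, and none of these was called. Both enzyme loci had their highest TAM112 value in grain filling dry replicate 1.

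**Figure D4:**
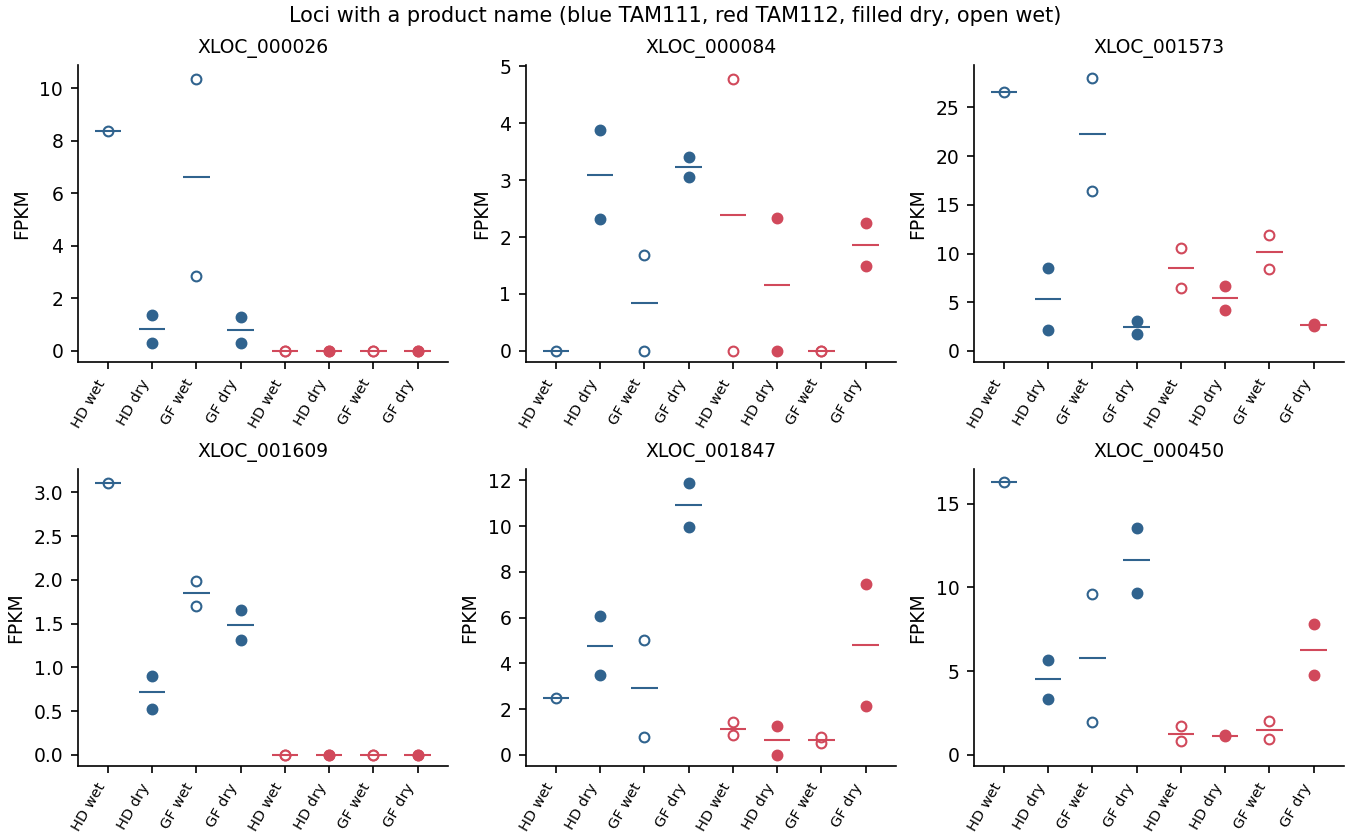
FPKM (y axis, linear) of the 6 members with a product name in each library, by stage and treatment (HD heading, GF grain filling) for TAM111 (blue) and TAM112 (red), with filled points for dry, open points for wet and a line at the group mean. XLOC_000026 and XLOC_001609 are at 0 throughout TAM112, whereas XLOC_001573 has its lowest group mean under dry at grain filling in both cultivars.

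The dry–wet comparisons asked how the stretch responded to drought in each cultivar, and few members were called. At heading in TAM111, 1 member was higher under dry (background 0.0591%) and 2 were lower (0.432%). At grain filling in TAM111, 16 were higher (1.71%) and 1 was lower (1.13%). In TAM112, limma called 0 members at heading (backgrounds 0.306% higher and 0.139% lower), with 7 at an unadjusted p under 0.05, and at grain filling 5 were higher (4.05%) and 2 were lower (1.82%). The grain filling calls leaned on the spread of all groups, which at absent members includes TAM112 libraries listed at 0. With only the libraries of each comparison in the fit, limma called 0 members at grain filling in either cultivar. At an unadjusted p under 0.05 were 67 in TAM111 and 51 in TAM112.

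The TAM111 values moved with the 2 libraries that stood apart. The median dry–wet difference of the 400 tested members in TAM111 was -0.25 at heading and 0.45 at grain filling, against 0.00 and 0.10 over all loci tested. Without the 2 libraries it was 0.05 and 0.19 (0.00 and 0.09 over all loci), and 7 members were higher and 8 lower at grain filling (0.563% and 0.940% over all loci) and 2 higher and 2 lower at heading (0.310% and 0.614%). Of the 16 members higher under dry at grain filling, 6 were still called without the 2 libraries. Median-ratio scaling of the libraries moved the median over all loci at grain filling from 0.10 to 0.00 and that of the members to 0.34. In TAM112, the median was 0.00 at both stages (0.04 and 0.07 over all loci). Over the 150 tested members that passed the filter in TAM112, its medians were 0.02 and 0.10. Many other members were near 0 in TAM112, where a fall could not be detected. At members above 0, the confidence bounds implied a median of 4.0 to 5.57 fragments per locus in TAM112 libraries and 11 to 27.9 in TAM111 libraries, if they rest on the square root of the fragment count. The study gives an average number of reads per sample, but the depth of each library is otherwise unknown.

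**Figure D5:**
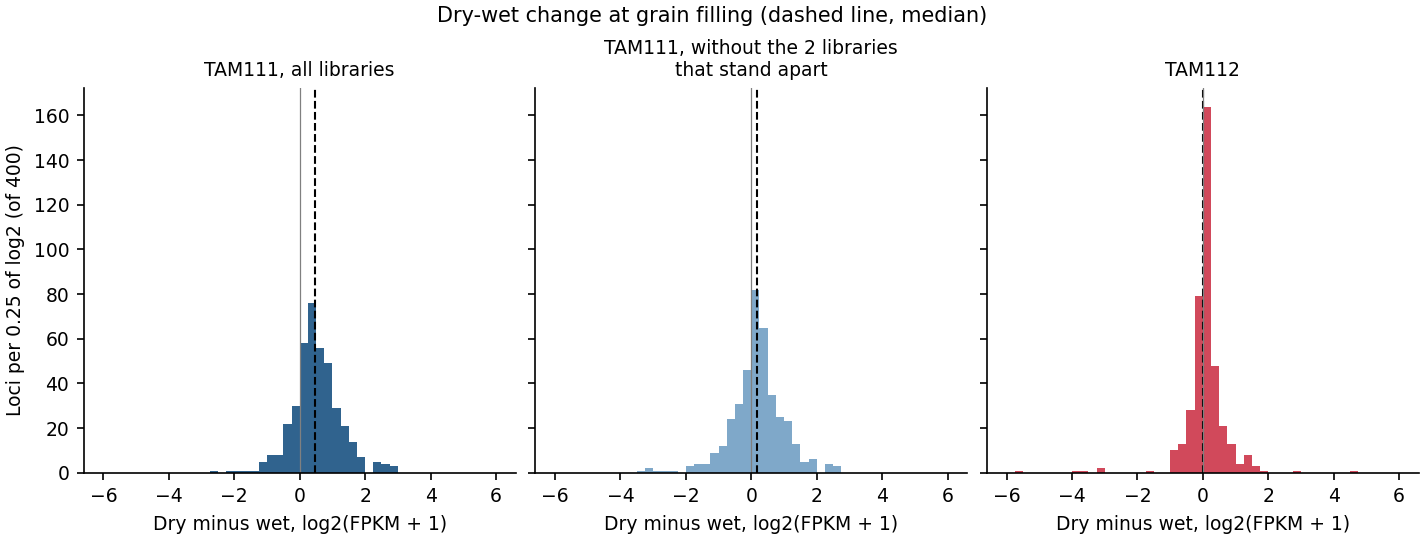
Number of tested members (y axis, of 400) by dry–wet difference at grain filling (x axis, log2(FPKM + 1), bins of 0.25, values beyond the axis in the end bins) in TAM111 with all libraries, in TAM111 without the 2 libraries that stood apart, and in TAM112. The dashed line is the median, which lies at 0.45, 0.19 and 0.00.

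All 16 members that were higher under dry in TAM111 at grain filling were absent (6), trace (9) or reduced (1) in TAM112, classes that together hold 88.0% of all members. XLOC_001922 (TraesCS1A01G084900, 71076073 to 71076608) was at 21.1 and 14.2 FPKM under dry and 0.676 and 2.68 under wet in TAM111, with no overlap (difference 2.88, SE 0.52, limma adjusted p = 0.0206, and 0.0506 without the 2 libraries). In TAM112 it was at 1.70 and 0.467 under dry and at 0 in both wet libraries, so that the direction was the same at a low level. XLOC_001919 (TraesCS1A01G084600, 70906359 to 70906661) was at 19.3 and 9.25 under dry and 0 and 3.40 under wet in TAM111 (limma adjusted p = 0.0374, and 0.111 without the 2 libraries) and was listed at 0 in all TAM112 libraries. The call of XLOC_001922 was lost without either dry replicate or wet replicate 1 of TAM111 at grain filling (adjusted p from 0.0636 to 0.131), and that of XLOC_001919 was lost when any 1 of 13 libraries was left out (0.0582 to 0.194).

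At heading, the calls in TAM111 rested on the single wet library. XLOC_001542 (TraesCS1A01G011600, 6766119 to 6768486) was at 16.5 and 26.0 FPKM under dry and at 0 under wet at heading (limma adjusted p = 0.00284), and at 3.68 to 7.79 in all 4 grain filling libraries of TAM111. XLOC_001880 (TraesCS1A01G077600, 60354626 to 60358841) was at 0.572 and 2.71 under dry and 31.3 under wet (limma adjusted p = 0.0409, and 0.109 without the 2 libraries that stood apart), of which 29.9 came from a short entry. Without entries under 300 bases neither was called, and XLOC_001880 changed direction, to 0.0199, and XLOC_001542 was no longer called lower in TAM112 on average (adjusted p = 0.418). XLOC_000577 (TraesCS1A01G112700, 115357675 to 115363302) was at 1.47 and 1.85 under dry and 8.30 under wet, and at 2.52 to 3.81 at grain filling (difference -1.81, SE 0.28, limma adjusted p = 0.0305, and 0.0655 without the 2 libraries). The call of XLOC_000577 was also lost without either heading dry replicate of TAM111 (adjusted p = 0.0928 and 0.0729), and that of XLOC_001880 was lost when any 1 TAM112 library was left out (0.0627 to 0.0705).

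In TAM112 at grain filling, the largest called rise was at XLOC_000404 (TraesCS1A01G078800 and TraesCS1A01G078900, 61575829 to 61714666). It was at 10.8 and 6.74 FPKM under dry and 0.493 and 0.323 under wet, with no overlap (difference 2.76, SE 0.57, limma adjusted p = 0.0233). The call was lost without dry replicate 1 (adjusted p = 0.134), wet replicate 1 (0.0851) or wet replicate 2 (0.106). In TAM111 the same locus was at 114 and 148 under dry and 16.9 and 34.7 under wet, again with no overlap, at a difference of 2.37 that was not called (SE 0.57, adjusted p = 0.0622). Its level left in TAM112 was 6.06%, and the responses were not called different (0.39, SE 0.80, adjusted p = 0.965). A locus on the opposite strand, XLOC_001884 (TraesCS1A01G078800, 61576507 to 61714627), covers almost the same bases with a transcript of 268 bases, and fragments of both cannot be told apart. XLOC_001884 was not tested and was at 0 in all TAM111 libraries, at 1784 FPKM in TAM112 grain filling dry replicate 1, at 18.5 in heading dry replicate 2 and at 0 in the other 6, so the level left at XLOC_000404 holds for its own entries only.

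XLOC_000455 (TraesCS1A01G090800, 82079675 to 82080037) was at 3.81 and 1.97 FPKM under dry at grain filling in TAM112 and at 0 in the other 13 libraries of both cultivars (limma adjusted p = 0.00441). It passed the filter only through these dry libraries, so a high level there was built into its membership and the call is no separate support. With only the libraries of the comparison in the fit, it was not called (1.92, limma adjusted p = 0.155). XLOC_000337 (TraesCS1A01G065700, 48576068 to 48591242) was at 0.553 and 0.546 under dry and 36.0 and 11.4 under wet, with no overlap (difference -3.79, SE 0.68, limma adjusted p = 0.0144, and 0.0775 and 0.08 without dry or wet replicate 1). At heading in TAM112 it was at 0.124 to 0.384, so the 2 wet libraries of grain filling stood alone, and in TAM111 it was at 1.45 to 10.3 throughout. XLOC_000506 was at 4.40 and 5.74 under dry and 136 and 20.6 under wet (difference -3.17, SE 0.78, limma adjusted p = 0.0458), and without its short entry it was not called (-1.87, adjusted p = 0.058). The call was also lost without the 2 TAM111 libraries that stood apart (adjusted p = 0.109) and, with single libraries left out, in 11 of 15 cases (0.0662 to 0.192).

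XLOC_000615 (TraesCS1A01G120500, 133126480 to 133126890), named after its values were seen, was the 1 member higher under dry in both cultivars at grain filling. It was at 21.4 and 18.5 FPKM under dry and 7.48 and 8.16 under wet in TAM111 (difference 1.25, SE 0.26, limma adjusted p = 0.0385, and 0.21 without the 2 libraries). In TAM112 it was at 2.57 and 4.72 under dry and 0.674 and 0.893 under wet (difference 1.34, limma adjusted p = 0.0191). The dry libraries were above the wet libraries in both cultivars, with no overlap.

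The difference between the cultivars in the dry–wet response was called at 1 member at heading and 2 at grain filling, all with a lower value in TAM112 (backgrounds 0.0306% and 0.106%). With a higher value in TAM112 limma called 0 members at either stage (backgrounds 0.122% and 0.128%), with 22 and 7 at an unadjusted p under 0.05. XLOC_000238 (TraesCS1A01G046200, 27398931 to 27399230) was at 5.03 and 4.94 FPKM under dry at grain filling in TAM111 and at 0 in the other 13 libraries of both cultivars. XLOC_000244 (TraesCS1A01G047400, 29280083 to 29280666) was at 4.35 and 5.18 under dry at grain filling in TAM111, at 0.503 in TAM112 grain filling wet replicate 1, and at 0 in the other 12. Both were thus found in TAM111 in those libraries alone and passed the filter only through them. A high level in that group was built into their membership, so their calls are no separate support. The member at heading was XLOC_001542, whose call was lost without entries under 300 bases.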

How the data were processed

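RNA-seq was made by the authors from flag leaves of TAM111 and TAM112. Per the labels and methods, reads were trimmed with Trimmomatic 0.38 and aligned with TopHat2 to IWGSC RefSeq v1.0, and each library was quantified alone with Cufflinks, guided by the reference annotation. The deposited values were FPKM per gene with confidence bounds, together with a merged catalogue of exon positions over all libraries. Versions of TopHat2 and Cufflinks were not given in the sources used here. Output of Cuffdiff was not analysed here.

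Entries of each library were assigned to loci of the catalogue by gene name or, failing that, by the best overlap (bedtools 2.31.1, strand not used), and their FPKM was summed. A locus without an entry was read as 0. Between 0.932% and 26.1% of the FPKM of a library fell on no locus. Of 50172 loci that passed the filter, 1126 were left out for overlap and 49046 were tested. Group means of the 8 groups were fitted to log2(FPKM + 1) with limma 3.58.1 under R 4.3.3, with a mean-variance trend and 7 residual degrees of freedom. A call needed a Benjamini-Hochberg adjusted p below 0.05 and, except for differences between responses, a change of at least 1. The fit was tested on simulated data.

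Alternatives were another pseudocount, no filter, median-ratio scaling, quantile normalization, a replicate block, separate fits, entries with a reference name only, and each library or both unusual TAM111 libraries left out. Leaving out entries spanning under 300 bases was chosen after seeing the data. Named loci were the members with a product name in the study's tables (XLOC numbers matched), the 6 absent members highest in TAM111, the 6 kept members highest in TAM112, the members called higher, the 2 largest and 2 smallest called changes of each dry–wet comparison, and the loci next to the limit. Others are marked in the text or follow from a count of 3 or fewer. Members, lists and rules were chosen with earlier results of these data known. No sequence is shown, since none was at hand for these genes.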

Additional observations from a re-analysis of the deposited data

Results flagged for a closer look

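At 3 members the dry–wet response differed between the cultivars by the interaction test (limma, Benjamini-Hochberg adjusted). At heading, XLOC_001542 (TraesCS1A01G011600) had a difference of responses, TAM112 minus TAM111, of -4.44 on the log2(FPKM + 1) scale (SE 0.54, adjusted p = 0.0212). At grain filling, the difference was -2.58 at XLOC_000238 (TraesCS1A01G046200, SE 0.28, adjusted p = 0.0115) and -2.82 at XLOC_000244 (TraesCS1A01G047400, SE 0.35, adjusted p = 0.0171). XLOC_001542 and XLOC_000238 were listed at 0 in all TAM112 libraries and XLOC_000244 in all but 1 (0.503 FPKM), so these tests largely restate the response in TAM111. XLOC_000238 and XLOC_000244 passed the filter only through the dry grain filling libraries of TAM111. A high level there was built into their membership, so their calls are no separate support. The values depend on the pseudocount, because at least 1 group was listed at 0 at each locus. Without the 2 TAM111 libraries that stood apart, the adjusted p was 0.0128, 0.00659 and 0.0229.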

How the results depend on the processing

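Of the comparisons of counts with alternatives, 319 lay within 1.5 times the main count and 63 did not; of those for single named loci, 1214 kept their side of the threshold, 76 lost a call, 22 gained one and 1 changed sign. That one was the dry–wet difference of XLOC_001880 at heading in TAM111, at 0.0199 without entries under 300 bases. Leaving out such entries, an alternative chosen after seeing the data, gave 6 differing responses in place of 3. Without both unusual TAM111 libraries, 144, 141 and 153 members were lower under dry and wet at heading and under wet at grain filling, and 8 responses differed. With a pseudocount of 0.1, 296 members were lower on average, dry changed 1 member at heading and 7 at grain filling in TAM111, and 1 response differed. With no filter, 6 members changed at heading in TAM111 and 7 responses differed. With only the libraries of a comparison in the fit, 0 members were lower under dry at heading, 1 under dry and 0 under wet at grain filling, 0 changed at grain filling in either cultivar, and 13 responses differed. Entries with the reference name only covered 99 members in all libraries, of which 59 were lower on average and 1 higher, 11, 13, 38 and 12 were lower in the 4 comparisons, 40 did not overlap, and 25, 53, 10, 6 and 5 were absent, trace, reduced, kept and higher. Among these, dry changed 0 members at heading and 11 at grain filling in TAM111 and 3 at grain filling in TAM112, and 1 response differed. With absent set at 0.5 FPKM, 148 members were absent and 148 trace.

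With each library left out in turn, 230 to 265 members were lower on average and 1 to 3 higher, 1 being without TAM111 heading wet replicate 1. Lower under dry at heading were 15 (without TAM111 replicate 2 of that group) to 99 (without replicate 1), with 16 and 18 without either TAM112 library. Lower under wet at heading were 22 (without either TAM112 library) to 97, lower under dry at grain filling 68 (TAM112 replicate 1) to 182, with 92, 93 and 84 without the others, and lower under wet at grain filling 27 (TAM111 replicate 2) to 91, with 28 and 35 without TAM112 replicates 1 and 2. In TAM111, dry changed 1 to 6 members at heading (1 without heading dry replicate 1, 5 or 6 without any grain filling library) and 10 to 22 at grain filling (10 without dry and 11 without wet replicate 1). In TAM112 it changed 0 to 2 at heading (2 without dry replicate 2) and 2 to 8 at grain filling (3 without dry replicate 1, 2 and 4 without wet replicates 1 and 2). Differing responses numbered 2 to 7 (5, 7 and 5 without TAM111 grain filling dry replicate 2, wet replicate 1 and wet replicate 2). Members that did not overlap numbered 229 to 256, and the classes held 73 to 79, 215 to 233, 54 to 69, 36 to 45 and 8 to 13. Replicate numbers did not pair the samples (correlations of deviations from -0.02 to 0.09). With a replicate block, 253 members were lower on average, 1 changed at heading in TAM111, and no other count moved by over 1.5 times. Causes were not tested. With 1 or 2 libraries a group and few fragments at most loci in TAM112, small changes there could not be detected.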
